A study of Mus musculus with 59 samples.

Results

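The 10 genes followed here through 5 brain regions and 3 Atxn1 genotypes were Etv1, Etv4, Etv5, Spry1, Spry2, Spry4, Spred1, Dusp4, Dusp6, and Shc3. They were chosen by name, with earlier results of these data known, as classic genes that the transcriptional repressor Capicua (CIC) holds down and that growth factor signaling through the MAP kinase ERK releases. They are 10 of the 54232 mouse genes counted. The libraries come from 12 C57BL/6 mice aged 10 weeks, and each library is 1 dissected region of 1 mouse. The 4 WT mice were compared with 4 Atxn1 154Q/2Q mice (called 154Q mice here), which carry an expanded CAG repeat knocked in to 1 Atxn1 allele, and with 4 154Q-AXH mice, whose genotype is Atxn1 154Q[V591A;S602D]/2Q. The expanded allele of the latter also carries V591A and S602D, numbered as in human ATXN1, which were introduced by CRISPR/Cas9 editing to break the binding of ATXN1 to CIC. Both mutant genotypes keep 1 Atxn1 allele with the normal mouse repeat, both carry the expansion in every cell type that expresses Atxn1, and the edited mice descend from CRISPR founders crossed back to C57BL/6J. Every region and genotype had 4 libraries except the 154Q-AXH brainstem, which had 3, so that there were 59 libraries in all. The comparisons ask whether expanded ATXN1 changes the level of these CIC targets, and whether it does so when it cannot bind CIC.

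CIC is a high-mobility-group box protein that binds a short DNA motif and silences nearby genes. When ERK is active, CIC is phosphorylated and its targets are released, and many of those targets in turn damp the pathway. The PEA3 family factors Etv1, Etv4, and Etv5 carry the transcriptional output of receptor tyrosine kinases, the Sprouty and Spred proteins act on Ras and RAF to limit ERK activation, and the phosphatases DUSP4 and DUSP6 remove phosphate from ERK itself. ATXN1 and its relative ATXN1L form a complex with CIC in the brain, and mice without CIC are known to express these targets at higher levels.

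In GRCm38, 9 of the genes lie at chr12:38779380-38870484 (Etv1), chr11:101769742-101785371 (Etv4), chr16:22381309-22439719 (Etv5), chr3:37639947-37644598 (Spry1), chr14:105891947-105896819 (Spry2), chr2:117121374-117182279 (Spred1), chr8:34807297-34819894 (Dusp4), chr10:99263231-99267489 (Dusp6), and chr13:51431041-51569419 (Shc3). All 10 passed the filter on low counts in every region. Each library held between 28058359 and 112343574 counted read pairs, with the striatum (at most 54719126) and the cortex (at most 46174761) shallower than the cerebellum, brainstem, and hippocampus (at least 64416717). The counts of a member in a library ran from 129 for Dusp4 to 66018 for Etv1. The Spry1 counts are uncertain, because 24.4% of its exon bases are shared with Gm42922 on the opposite strand and the counts ignore strand. Atxn1 and Cic, measured as a check of the alleles, passed edgeR's test in no region (lowest adjusted p = 0.0785, for Atxn1 in the 154Q brainstem). Atxn1 lay higher without overlap in the brainstem of both mutants (34.1 to 38.4 CPM in WT, 39.6 to 44.1 in 154Q, and 40.4 to 44.4 in 154Q-AXH mice) and in the 154Q-AXH hippocampus (89.6 to 98.4 CPM, against 64.6 to 81.7 CPM in WT). In the 154Q hippocampus Atxn1 held 97.7, 95.7, and 95.5 CPM in 154Q-69, 154Q-71, and 154Q-75, also above WT. Only 154Q-76, at 69.1 CPM, overlapped WT, and that library is described next. Some libraries stand apart from their labels. The hippocampal library of mouse 154Q-76 held both Xist (187 CPM) and Ddx3y (53.8 CPM), and its 5 brainstem markers summed to 393 CPM against 1.40 to 4.18 CPM in the other hippocampal libraries. The cortical library of mouse WT-221 held 470 CPM of Xist and 0.897 CPM of Ddx3y, whereas the other 4 libraries of that mouse held at most 5.92 CPM of Xist and at least 72.2 CPM of Ddx3y. All libraries of mice 154Q-75 and 154Q-AXH-217 held 422 to 1161 CPM of Xist and at most 1.24 CPM of Ddx3y. Each mutant group thus holds a mouse of this kind, and among WT libraries only cortical WT-221 was alike. The Xist level was a covariate in an alternative fit. For a pair of cortical libraries, labelled 154Q-76 and 154Q-AXH-207, the names of the deposited files are exchanged, and the labels were followed. Mouse numbers fall in a low and a high series: all 4 154Q mice are in the low series, all 4 154Q-AXH mice are in the high series, and the WT mice are 2 of each, so that series and mutant genotype cannot be told apart when the mutants are compared with each other. Calls of the 10 members were also made without the hippocampal 154Q-76 library, the cortical WT-221 library, or the cortical pair. All other genes named below were tested only with these libraries in.

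Of the 10 genes, 6 have promoter records in RefSeq (GRCm38.p6), 8 records in all, each running from 250 bases before a transcription start to 50 bases after it. The 8-base forms of the CIC motif, TGAATGAA, TGAATGGA, TCAATGAA, and TCAATGGA, were searched on both strands. They occur in 2 of the 8 records, those of Dusp6 and Spry2, and in 3.84% of all 32851 promoter records. Dusp6 holds 2 copies, whose first bases lie at -24 and 2 from the start, which 0.183% of all records do. The Etv5 record that starts further downstream holds no 8-base form but has 3 copies of the 6-base cores TGAATG or TCAATG, a search added after the sequences had been seen, and 3 or more cores are found in 0.46% of all records. At least 1 core is found in 19.9% of all records. These 3 promoters are printed because they hold an 8-base form (Dusp6 and Spry2) or only 6-base cores (Etv5). The forms and cores are in capitals on whichever strand they lie (the core is part of the longer form). A match of letters is a description and does not show binding. The Dusp6 window is chr10:99262981-99263280 on the plus strand, the Spry2 window is chr14:105896770-105897069 on the minus strand, and the Etv5 window is chr16:22438319-22438618 on the minus strand.
Dusp6: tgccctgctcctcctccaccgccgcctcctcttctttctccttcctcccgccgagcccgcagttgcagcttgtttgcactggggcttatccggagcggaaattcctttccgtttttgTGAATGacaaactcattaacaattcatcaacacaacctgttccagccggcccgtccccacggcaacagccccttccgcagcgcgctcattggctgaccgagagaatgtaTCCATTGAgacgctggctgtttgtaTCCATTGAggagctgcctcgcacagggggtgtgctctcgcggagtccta
Spry2: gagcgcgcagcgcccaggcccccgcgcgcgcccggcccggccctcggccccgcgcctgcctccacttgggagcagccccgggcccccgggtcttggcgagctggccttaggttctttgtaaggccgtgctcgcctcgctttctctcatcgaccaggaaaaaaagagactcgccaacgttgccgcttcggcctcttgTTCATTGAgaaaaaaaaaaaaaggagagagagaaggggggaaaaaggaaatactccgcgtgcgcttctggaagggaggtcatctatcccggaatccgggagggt
Etv5: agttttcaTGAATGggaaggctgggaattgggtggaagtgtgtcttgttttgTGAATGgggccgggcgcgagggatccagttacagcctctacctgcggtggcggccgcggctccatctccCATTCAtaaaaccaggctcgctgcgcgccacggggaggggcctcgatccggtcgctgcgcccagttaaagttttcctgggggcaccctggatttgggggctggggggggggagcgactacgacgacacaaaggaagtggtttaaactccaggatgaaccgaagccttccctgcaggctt

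The 10 genes had unlike regional patterns in WT mice. Levels are compared between genes as CPM per kb of exon, on 1 scale over all regions. Etv1, which marks cerebellar granule cells and subsets of cortical neurons, was far higher in the cerebellum (46.2 ± 7.64 CPM per kb, SD, n = 4) than in the hippocampus (10.5 ± 1.18), cortex (7.94 ± 1.14), brainstem (7.29 ± 0.0957), and striatum (5.28 ± 0.463), a span of 8.75-fold. Cortex and brainstem did not differ for Etv1 (adjusted p = 0.417), and each other step in its order did. Dusp6 split the brain differently: cortex (31.7 ± 3.0), striatum (25.3 ± 4.33), and hippocampus (22.5 ± 3.13) lay well above cerebellum (7.80 ± 0.448) and brainstem (6.55 ± 0.879), and only the step from hippocampus to cerebellum passed the test (log2 difference 1.55 ± 0.12, SE, adjusted p = 5.24e-10). Without WT-77, the steps of Dusp6 from cortex to striatum (0.0457) and from cerebellum to brainstem (0.0195) passed too.

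Etv5 ran from 30.6 ± 2.53 CPM per kb in the cortex to 12.3 ± 1.02 in the brainstem, with striatum, cerebellum, and hippocampus between. Cortex and striatum did not differ beyond their spread (adjusted p = 0.409), nor did cerebellum and hippocampus (adjusted p = 0.0953, and 0.0432 without WT-70). Spry2 was highest in the striatum (33.2 ± 4.82) and lowest in the brainstem (14.2 ± 1.02). Of its neighbours in order, only striatum and cortex did not pass the test (adjusted p = 0.0744), but the step from cerebellum to hippocampus was lost without WT-77, WT-220, or WT-221 (0.0593 to 0.27). Dusp4 was highest in the hippocampus (10.2 ± 1.44) and cortex (8.65 ± 1.69), which did not differ (adjusted p = 0.283), and cerebellum, striatum, and brainstem (5.17 ± 1.26 to 3.84 ± 0.484) formed a lower set whose neighbours did not differ. Etv4 was higher in the cerebellum (5.05 ± 0.524) than in the cortex, next in order (3.30 ± 0.362, adjusted p = 5.31e-06), and lowest in the hippocampus (2.41 ± 0.185).

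The remaining members were Spred1, Spry1, Spry4, and Shc3. Spred1 lay between 28.9 ± 2.77 CPM per kb in the hippocampus and 33.6 ± 4.17 in the cerebellum, a span of 1.16-fold, and no step in its order passed the test. Spry1 was among the lowest members, at 1.97 ± 0.184 in the brainstem to 2.90 ± 0.142 in the hippocampus, and again no step passed. Spry4 was highest in the cerebellum (5.77 ± 0.981) and lowest in the striatum (2.72 ± 0.461). For Spry4, the step from cerebellum to brainstem passed (adjusted p = 0.00661, and 0.0694 without WT-221) and the others did not. Shc3, a neuronal adaptor that links receptors to Ras, was lower in the cerebellum (3.02 ± 0.42) than in the striatum, next above it (6.13 ± 1.67, adjusted p = 0.00022). Its other regions lay between 6.13 and 7.45 and did not differ from their neighbours.

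**Figure D1:**
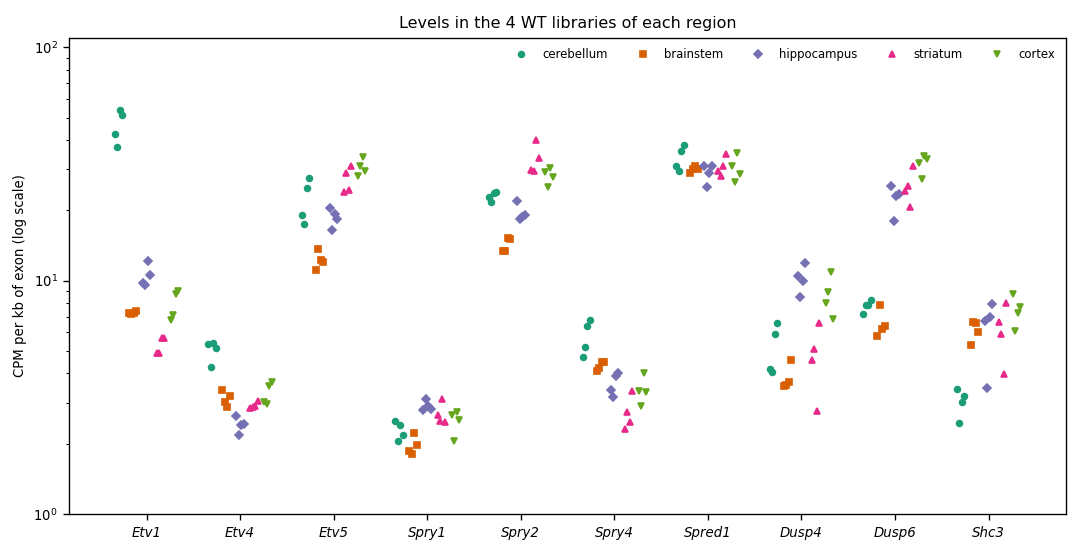
Levels of the 10 genes in WT mice, as CPM per kb of exon on a log axis, with 1 point per library and 4 libraries per region, colored by region. Etv1 spans 8.75-fold, with the 4 cerebellar libraries on top, Dusp6 splits into a forebrain set and a lower cerebellar and brainstem set, and Spred1 lies at nearly the same height in every region.

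In pairs of regions, 8 of the 10 members differed between cerebellum and cortex (edgeR's quasi-likelihood test, 70.3% of all 22200 genes tested), 8 between cerebellum and striatum (71.8%), 8 between cerebellum and hippocampus (63.6%), 7 between brainstem and hippocampus (60.7%), 6 between cerebellum and brainstem (65.4%), 6 between brainstem and striatum (66.1%), 6 between brainstem and cortex (65.1%), 6 between hippocampus and striatum (58.2%), and 5 between hippocampus and cortex (55.4%). Striatum and cortex differed for 2 of 10 members, against 10.7% of all genes, the lowest share of any pair. The 5 markers of the cortex summed to 216 to 567 CPM in the WT striatum and 517 to 617 CPM in the WT cortex. The 5 markers of the striatum summed to 747 to 2418 CPM in the WT striatum and 65.4 to 96.0 CPM in the WT cortex. How far the striatal and cortical libraries share tissue was not tested. The members thus differed between regions about as often as genes in general. With mouse as a replicate block, the count for striatum and cortex was 4 instead of 2, and without WT-70 or WT-220 it was 1.

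Members of the set were called lower in the cortex and striatum of both mutants and, for Dusp4 alone, in the 154Q hippocampus. In the main edgeR fit none was called lower in the cerebellum or brainstem in either mutant. With the number series in the model, Etv1 (-0.21, adjusted p = 0.0284), Etv5 (-0.51, 0.0467), and Spred1 (-0.25, 0.0352) were called lower in the 154Q-AXH cerebellum, and without WT-77 Etv1 was called lower in the 154Q cerebellum. In the 154Q cortex, 5 of the 10 genes fell (Etv1, Etv5, Spred1, Dusp4, and Dusp6) and none rose, where 6.71% of the 18610 genes tested fell and 11.1% changed in either direction. All 10 log2 fold changes were below 0 there, as were 47.7% of those of all genes, and the median was -0.25 over the members and 0.01 over all genes. For the same 5 members, all 4 154Q libraries lay below all 4 WT libraries, which was so for 8.01% of all genes. In the 154Q striatum, 2 fell, Spry2 and Spred1 (3.77% of 18408 genes fell and 5.69% changed), and for 4 members the groups did not overlap, with 154Q lower (8.94% of all genes). The striatal count was 4 by DESeq2, in the fit of the 2 genotypes, and without WT-220 or 154Q-AXH-217. The 5 markers of the striatum itself summed to 747 to 2418 CPM in the WT striatum, 359 to 575 CPM in 154Q, and 293 to 1657 CPM in 154Q-AXH mice, none of the 5 passed the test, and their part in the members' changes was not tested. In the 154Q hippocampus only Dusp4 fell (3.39% of 21454 genes fell and 5.91% changed), and 3 members had 154Q libraries all below WT (7.26%). In the 154Q cerebellum no member passed the test by edgeR, where 5.22% of all 20874 genes did. DESeq2 called Etv4 there, 2 members had an unadjusted p under 0.05 (18% of all genes), and Etv4 alone did not overlap WT, being higher (4.76% of all genes). No member passed in the 154Q brainstem either (0.538% of 21754 genes). DESeq2 called Etv4 there too, which was also the 1 member with an unadjusted p under 0.05 (10.9%) and the 1 member above WT without overlap (2.88%). In the other regions the median over the members was -0.35 (striatum), -0.12 (hippocampus), -0.04 (cerebellum), and 0.06 (brainstem), and the median over all genes lay between -0.01 and 0.02.

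The 154Q-AXH mice, compared with the same WT libraries, gave 4 members lower in the cortex (Etv1, Etv5, Dusp4, and Dusp6), where 4.76% of genes fell and 7.15% changed in either direction. They gave 2 lower members in the striatum, Spry2 and Dusp6 (1.08% of genes fell and 1.35% changed), and 1 higher member in the cerebellum, Etv4 (1.08% of genes rose and 2.21% changed). In the 154Q-AXH hippocampus no member was called by edgeR (1.3% of genes were), DESeq2 called Dusp6, and 7 of the 10 had an unadjusted p under 0.05 (14.9% of genes). In the 154Q-AXH brainstem none was called (0.0138% of genes), DESeq2 called Etv4, and 1, Etv4, had an unadjusted p under 0.05 (6.73%). The 154Q-AXH libraries all lay below WT for 4 members in the cortex (8.15% of all genes), 4 in the striatum (3.86%), and 2 in the hippocampus (5.79%), and all above WT for 2 in the hippocampus (6.2%), 2 in the cerebellum (4.68%), and 1 in the brainstem (4.34%). The median over the members was -0.25 (cortex), -0.30 (striatum), -0.21 (hippocampus), -0.09 (cerebellum), and 0.08 (brainstem). In bulk tissue, fewer cells of a type that expresses a gene and less RNA per cell cannot be told apart, and that holds for every change described here.

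**Figure D2:**
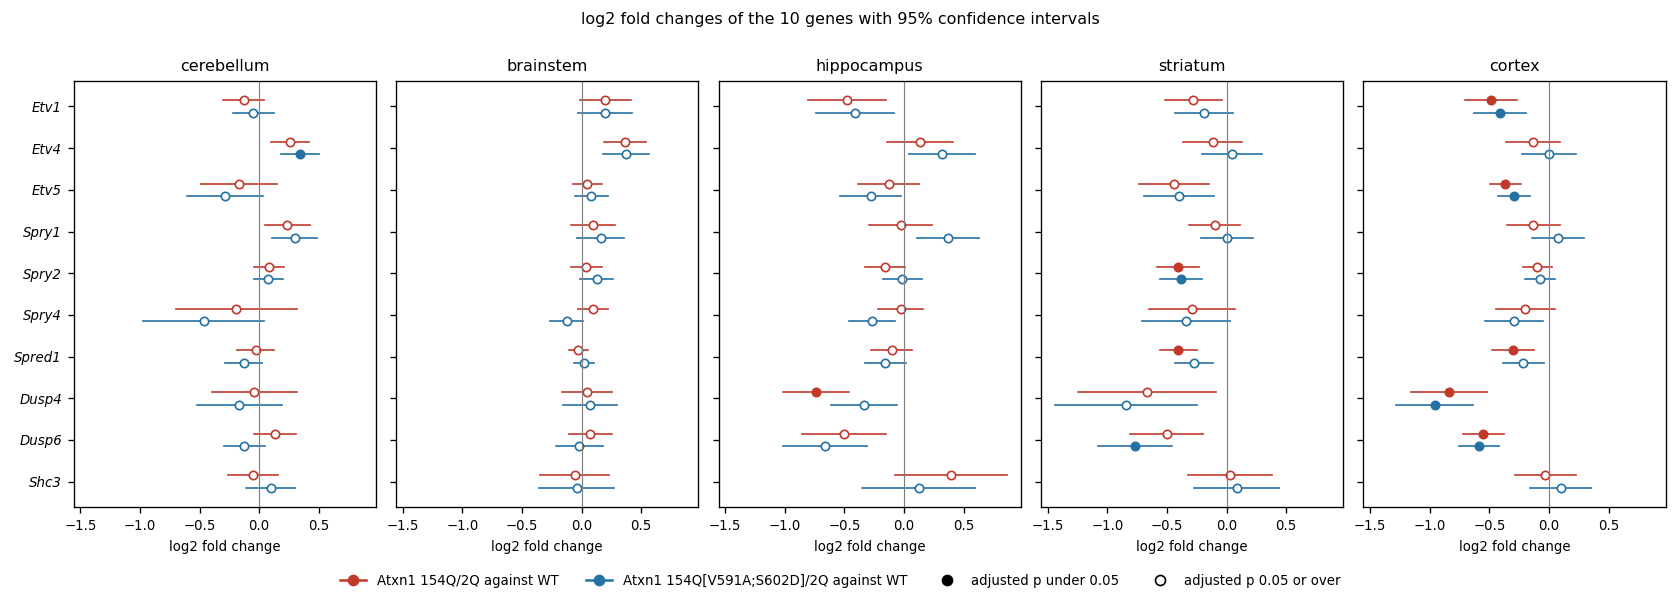
log2 fold changes against WT in each region, for 154Q (red) and 154Q-AXH (blue) mice, with 95% confidence intervals as bars. Filled points passed an adjusted p of 0.05. In the cortex 9 points are filled, all below 0, and the cerebellar Etv4 point of 154Q-AXH mice is the filled one above 0.

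The PEA3 family factors moved in both directions. Etv5, a target of FGF signaling, held 112, 124, 135, and 118 CPM in the WT cortex, 98.1, 92.8, 89.7, and 99.8 CPM in the 154Q cortex, and 90.5, 103, 106, and 100.5 CPM in the 154Q-AXH cortex. All 8 mutant libraries lay below the WT libraries. The log2 fold change of Etv5 was -0.36 ± 0.06 (SE, adjusted p = 0.00165) in 154Q and -0.29 ± 0.06 (adjusted p = 0.00982) in 154Q-AXH mice, that is, 77.7% and 81.6% of the WT level. Both calls held under each of 20 alternatives. In the striatum the difference was of like size, -0.44 ± 0.14 in 154Q (adjusted p = 0.0792) and -0.40 ± 0.14 in 154Q-AXH mice (adjusted p = 0.208), and missed the threshold, although the groups did not overlap. Without the low library of mouse 154Q-AXH-217, which enters the shared estimate of the spread, the 154Q striatum passed for Etv5 (adjusted p = 0.0146). DESeq2 (adjusted p = 0.0476) and a fit of only the WT and 154Q libraries (0.0298) also called it. Etv5 values in the cerebellum overlapped between genotypes (74.0 to 113 CPM in WT, 69.3 to 100.1 in 154Q, and 66.7 to 97.5 in 154Q-AXH mice). The 154Q-AXH change there was -0.29 ± 0.15 (adjusted p = 0.389), and with the number series in the model it was -0.51 and called (0.0467).

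Etv1 held 88.2, 92.8, 114, and 117 CPM in the WT cortex, 61.2, 72.0, 76.8, and 83.6 CPM in the 154Q cortex, and 70.2, 87.3, 76.3, and 76.02 CPM in the 154Q-AXH cortex. The mutant libraries all lay below WT, and within WT the mice of the low number series (WT-70 and WT-77) held less than those of the high series (WT-220 and WT-221). The log2 fold change of Etv1 was -0.49 ± 0.10 (adjusted p = 0.00683) in 154Q and -0.41 ± 0.10 (adjusted p = 0.0241) in 154Q-AXH mice. With the number series in the model, which compares mice within a series, it was -0.30 (adjusted p = 0.122) in 154Q and -0.57 (adjusted p = 0.00668) in 154Q-AXH mice. The 154Q-AXH call was also lost without WT-220, WT-221, 154Q-AXH-207, 154Q-AXH-217, or 154Q-AXH-218 (adjusted p = 0.052 to 0.0848), WT-221 being the cortical library that stands apart, and without the pair of cortical libraries in doubt (0.0734). With the labels of that pair exchanged it held (0.0288).

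In the hippocampus Etv1 held 128 to 163 CPM in WT, 88.3 to 125 CPM in 154Q, and 73.6 to 119.7 CPM in 154Q-AXH mice, with no overlap between WT and either mutant. The log2 fold change of hippocampal Etv1 was -0.48 ± 0.15 in 154Q (adjusted p = 0.0846) and -0.41 ± 0.15 in 154Q-AXH mice (adjusted p = 0.215). Without the hippocampal library of 154Q-76 the first was -0.43 (adjusted p = 0.145). Without 154Q-75 it was -0.59 (adjusted p = 0.0455), and without 154Q-AXH-218 the 154Q change had an adjusted p of 0.0171. DESeq2 called it as well (0.026). In the cerebellum, its main site, Etv1 held 513 to 713 CPM in WT and 557 to 583 CPM in 154Q mice (log2 fold change -0.13 ± 0.08, adjusted p = 0.439). Without WT-77 this change was -0.22 (adjusted p = 0.0483). The 3 markers of cerebellar granule cells summed to 2842 to 3258 CPM in the WT cerebellum and, without overlap, to 2616.5 to 2804.5 CPM in the 154Q cerebellum. In the 154Q-AXH cerebellum they summed to 2863 to 3084 CPM and overlapped WT. Their part in the Etv1 values was not tested.

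Etv4, the least abundant of the 3 per length in WT mice, lay above WT in several mutant groups. The WT cerebellum held 17.1, 13.7, 16.8, and 16.1 CPM, the 154Q cerebellum 20.6, 18.4, 18.4, and 18.8 CPM, and the 154Q-AXH cerebellum 18.6, 20.8, 19.5, and 21.8 CPM. Every mutant library lay above every WT library. Etv4 rose in 154Q-AXH mice, by 0.34 ± 0.07 on the log2 scale (adjusted p = 0.026, 127% of WT), and in 154Q mice the difference was 0.26 ± 0.07 and missed the threshold by edgeR (adjusted p = 0.057). The 154Q-AXH call was lost without WT-221, 154Q-AXH-209, 154Q-AXH-217, or 154Q-AXH-218 (adjusted p = 0.0612 to 0.108), in the fit of the 2 genotypes alone (0.0638), and with the number series (0.0572). The 154Q change passed without WT-70 (0.0437) and by DESeq2 (0.0143). In the brainstem Etv4 held 9.07 to 10.7 CPM in WT, 11.5 to 13.4 in 154Q, and 11.1 to 13.9 in 154Q-AXH mice. Again no library overlapped, and the log2 fold changes were 0.36 ± 0.08 (adjusted p = 0.0886) and 0.37 ± 0.09 (adjusted p = 0.361). DESeq2 called both (adjusted p = 0.00249 and 0.0193). Markers of Purkinje cells, the cerebellar output neurons, were lower beside this. Of 4, 3 fell in the 154Q cerebellum (3.12% of all genes fell) and 2 in the 154Q-AXH cerebellum (2.21% changed in either direction). The part of these markers in the Etv4 result was not tested. In the hippocampus Etv4 held 6.87 to 8.31 CPM in WT, 6.86 to 10.7 in 154Q, and 8.62 to 10.3 in 154Q-AXH mice, which did not overlap WT (0.32 ± 0.13, adjusted p = 0.257). The 154Q value of 10.7 CPM is that of 154Q-76, the library with brainstem markers. The 154Q change there, 0.14 ± 0.13, ran from -0.02 to 0.21 under alternatives. In the cortex Etv4 did not separate the genotypes (-0.13 ± 0.11 in 154Q mice, adjusted p = 0.474, and adjusted p = 0.996 in 154Q-AXH mice).

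**Figure D3:**
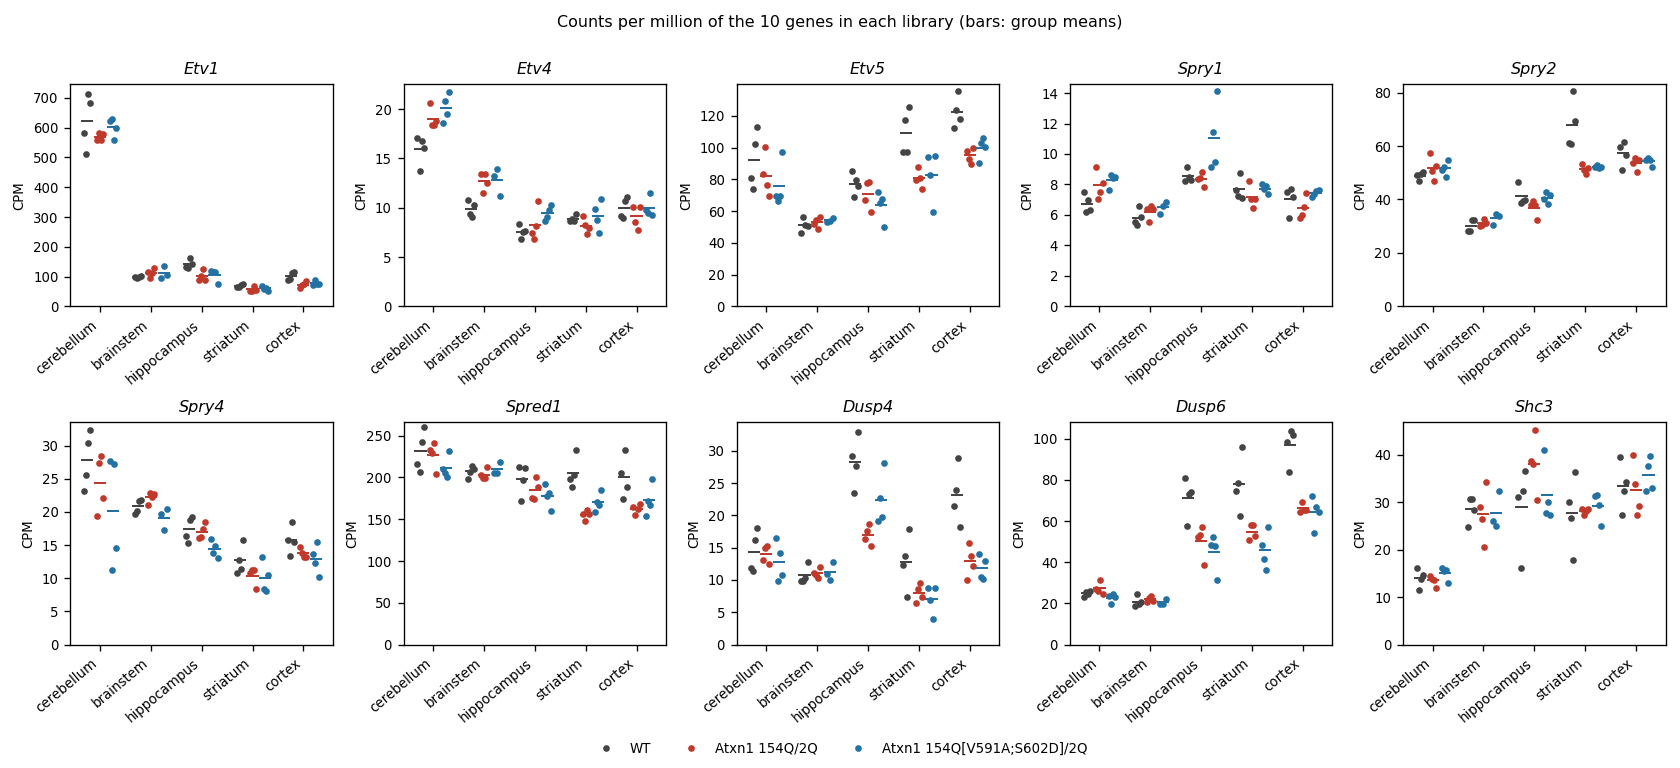
CPM of each of the 10 genes in every library, by region and genotype (gray, WT; red, 154Q; blue, 154Q-AXH), with horizontal bars at the group means and axes that start at 0. The mutant points of Dusp4, Dusp6, and Etv5 in the cortex lie below all WT points, and those of Etv4 in the cerebellum and brainstem lie above them.

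Among the inhibitors of Ras and RAF, Spry2 fell in the striatum and Spred1 in the striatum and cortex. Spry2 held 61.3, 60.9, 80.5, and 69.3 CPM in the WT striatum, 53.3, 50.9, 49.5, and 51.7 CPM in the 154Q striatum, and 52.0, 53.1, 51.7, and 52.0 CPM in the 154Q-AXH striatum. The 8 mutant libraries lay within 49.5 to 53.3 CPM, below every WT library. Spry2 fell by 0.41 ± 0.08 on the log2 scale (75.4% of WT, adjusted p = 0.0132) in 154Q and by 0.38 ± 0.08 (76.7%, adjusted p = 0.0385) in 154Q-AXH mice. The 154Q call was lost without 154Q-71 (adjusted p = 0.051) or 154Q-75 (0.0538) and with the number series (-0.25, adjusted p = 0.133). The 154Q-AXH call rests on a narrow margin: it was lost in 12 of 18 alternatives, 9 of them the removal of 1 library (WT-221, any 154Q library, or any 154Q-AXH library, adjusted p = 0.0731 to 0.143), with log2 fold changes between -0.52 and -0.29. In the other regions Spry2 changed by between -0.16 and 0.13 and was not called.

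Spred1, which joins neurofibromin to block Ras, held 198, 189, 203, and 233 CPM in the WT striatum, 156, 148, 161, and 156 CPM in the 154Q striatum, and 159, 170.1, 167, and 184 CPM in the 154Q-AXH striatum. No mutant library reached the lowest WT library. The fall of Spred1 was 0.40 ± 0.07 in 154Q mice (log2 fold change -0.40, 75.5% of WT, adjusted p = 0.00721), and the 154Q-AXH change, -0.27 ± 0.07, was not called (adjusted p = 0.101) except by DESeq2 (0.0406). With the number series, the 154Q change was -0.32 (adjusted p = 0.0952). In the cortex Spred1 held 175 to 232 CPM in WT and 156 to 168 CPM in 154Q mice, a log2 fold change of -0.30 ± 0.08 (adjusted p = 0.0265). That cortical call was lost without WT-70, WT-220, 154Q-69, or 154Q-71 (adjusted p = 0.0549 to 0.0904) and with the number series (-0.23, adjusted p = 0.241). In 154Q-AXH mice the cortical change was -0.21 ± 0.08 (adjusted p = 0.138).

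Spry1 and Spry4 were called in no region. Spry1 lay above WT in the cerebellum, with 6.20 to 7.48 CPM in WT and 7.63 to 8.60 CPM in 154Q-AXH mice (log2 fold change 0.30 ± 0.09, adjusted p = 0.106), and DESeq2 called that difference (0.0282). In the hippocampus Spry1 held 8.21 to 9.13 CPM in WT, 7.87 to 8.83 in 154Q, and 9.16 to 14.1 in 154Q-AXH mice (0.37 ± 0.12, adjusted p = 0.16). Spry4 spread widely in the 154Q-AXH cerebellum, at 27.7, 11.3, 27.2, and 14.6 CPM, while WT held 23.1 to 32.3 CPM. The log2 fold change of Spry4 there was -0.46 ± 0.24 (adjusted p = 0.385). Its interval was the widest of all members in the cerebellum, and both the 2 low and the 2 high libraries carry the same genotype label.

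The ERK phosphatases had the largest changes. Dusp4 held 21.4, 23.9, 28.9, and 18.2 CPM in the WT cortex, 9.99, 15.7, 13.7, and 12.2 CPM in the 154Q cortex, and 14.1, 10.5, 10.1, and 12.9 CPM in the 154Q-AXH cortex. All 8 mutant libraries lay below WT. Dusp4 fell by 0.84 ± 0.15 (56.0% of WT, adjusted p = 0.00214) in 154Q and by 0.96 ± 0.15 (51.5%, adjusted p = 0.00125) in 154Q-AXH mice, and both calls held under each of 20 alternatives, with log2 fold changes from -0.95 to -0.71 and from -1.06 to -0.83. In the hippocampus Dusp4 held 29.1, 23.5, 27.6, and 33.0 CPM in WT, 16.3, 17.6, 18.7, and 15.3 CPM in 154Q, and 19.1, 22.8, 19.8, and 28.1 CPM in 154Q-AXH mice. The 154Q libraries lay below WT, and the 154Q-AXH libraries lay above 154Q and overlapped WT. The log2 fold change was -0.74 ± 0.13 in 154Q (60.0% of WT, adjusted p = 0.00666), -0.70 without the library of 154Q-76 (adjusted p = 0.0117), and was called under each of 18 alternatives. In 154Q-AXH mice it was -0.33 ± 0.13 (adjusted p = 0.233). The direct comparison of the mutants gave 0.40 ± 0.13 (154Q-AXH above 154Q) and was not called (adjusted p = 0.422). Number series and genotype cannot be told apart in that comparison. The 5 markers of the hippocampus itself summed to 311 to 475 CPM in the WT hippocampus, 210.5 to 314 CPM in 154Q, and 324 to 620.5 CPM in 154Q-AXH mice. These sums did not overlap between the mutants, and their part in the members' differences was not tested. In the striatum 1 WT library, WT-220, was low at 7.32 CPM against 12.4 to 17.9 CPM in the other 3, and the Dusp4 changes of -0.67 ± 0.27 and -0.85 ± 0.28 were not called. Without WT-220 they were -0.87 (adjusted p = 0.0453) and -1.05 (0.0316).

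Dusp6 acts in the cytoplasm on ERK, where Dusp4 acts in the nucleus. It held 98.3, 83.7, 104, and 102 CPM in the WT cortex, 64.2, 69.5, 65.4, and 65.5 CPM in the 154Q cortex, and 72.0, 54.3, 66.9, and 64.2 CPM in the 154Q-AXH cortex. The mutant values lay clear of WT and had the lowest adjusted p of the members, with log2 fold changes of -0.55 ± 0.08 (68.3% of WT, adjusted p = 0.000421) and -0.59 ± 0.08 (66.5%, adjusted p = 0.000322). Both held under each of 20 alternatives. In the striatum Dusp6 held 74.5, 78.5, 62.4, and 96.1 CPM in WT, 50.9, 58.0, 58.0, and 52.8 CPM in 154Q, and 48.2, 41.4, 36.3, and 57.2 CPM in 154Q-AXH mice. Again the mutants lay below WT. The 154Q-AXH change of striatal Dusp6 was -0.77 ± 0.14 (58.8% of WT, adjusted p = 0.0201), and the 154Q change, -0.50 ± 0.14, missed the threshold (adjusted p = 0.0599). The 154Q-AXH call was lost without WT-77, WT-221, 154Q-AXH-207, or 154Q-AXH-209 (adjusted p = 0.0542 to 0.0922), with the number series (0.0694), and in the fit of the 2 genotypes alone (0.114). The 154Q change of Dusp6 passed in that fit (0.0361), by DESeq2 (0.0235), and without WT-220 (0.0238), 154Q-AXH-217 (0.03), or 154Q-AXH-218 (0.0365).

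In the hippocampus Dusp6 held 57.4 to 80.8 CPM in WT, 38.6 to 57.0 CPM in 154Q, and 31.2 to 52.5 CPM in 154Q-AXH mice, so that neither mutant reached WT. The log2 fold changes were -0.50 ± 0.16 (adjusted p = 0.0904) and -0.66 ± 0.16 (adjusted p = 0.066). Without the library of 154Q-76, which enters the shared spread, the 154Q-AXH change of -0.66 passed (adjusted p = 0.0251), and the 154Q change was -0.40 (0.154). Without 154Q-AXH-218 the 154Q change passed (0.025), and DESeq2 called both (0.0277 and 0.0041). In the cerebellum and brainstem Dusp6 overlapped between 154Q and WT, with 24.4 to 31.5 CPM in the 154Q cerebellum and 23.3 to 26.0 CPM in WT.

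Shc3 was called in no comparison, and its groups overlapped in every region. Its log2 fold changes lay between -0.06 and 0.39 in 154Q and between -0.04 and 0.12 in 154Q-AXH mice. The hippocampal value of 0.39 ± 0.22 includes 1 low WT library, at 16.1 CPM beside 31.2 to 36.6 CPM in the other 3. Shc3 lies on chromosome 13, as Atxn1 does.

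No member differed between the 2 mutant genotypes in any region by edgeR or DESeq2. In this comparison edgeR called 0.0335% of all genes in the cerebellum and none in any other region (0% in each), and DESeq2 called 124 genes in the cerebellum, 46 in the hippocampus, 33 in the brainstem, and 0 in striatum and cortex. At an unadjusted p under 0.05 there was 1 cerebellar member (Dusp6, -0.26 ± 0.08, beside 7.6% of all genes), 1 in the brainstem (Spry4, -0.22 ± 0.06, beside 5.35%), 3 hippocampal members (Spry1, 0.40 ± 0.12, Spry4, -0.24 ± 0.09, and Dusp4, 0.40 ± 0.13, beside 11%), and none in striatum (3.26%) or cortex (6.67%). These differences have wide intervals. In the cortex the 95% intervals of the 10 members ran at most from -0.46 to 0.43, and in the striatum from -0.78 to 0.42, which are wider than several of the 154Q changes.

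The 154Q change differed between regions for 4 members: Spry2 (adjusted p = 0.00538), Dusp6 (0.00528), Etv1 (0.0263), and Dusp4 (0.0381), where 6.65% of all 24290 genes differed. This was tested in 1 model of all 59 libraries, as the difference of a genotype contrast over the 5 regions. For Spry2, the change in the striatum was below that in the cerebellum by 0.48 ± 0.10 (adjusted p = 0.00253) and below that in the brainstem by 0.44 ± 0.10 (0.00952). For Dusp6, the cerebellar change lay above that in the hippocampus (0.66 ± 0.18, adjusted p = 0.0276), striatum (0.62 ± 0.18, 0.038), and cortex (0.69 ± 0.18, 0.038). For Etv1, the brainstem change lay above that in the hippocampus by 0.70 ± 0.18 (adjusted p = 0.0174). No pair of regions passed for Dusp4. The 154Q-AXH change differed between regions for 2 members, Spry2 (adjusted p = 0.00825) and Dusp6 (0.0248), against 1.33% of all genes. The Spry2 difference of striatum from cerebellum (0.47 ± 0.10, adjusted p = 0.00995) and brainstem (0.53 ± 0.11, 0.00574) passed there too. The difference between the mutants varied over regions for no member, with 0 by edgeR (0.0823% of all genes) and 0 at an unadjusted p under 0.05, and DESeq2 was not run on this test.

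With mouse as a replicate block, Spred1 (adjusted p = 0.0163) and Etv4 (0.0451) joined the members whose 154Q change differed between regions, which made 6 instead of 4, and no call was lost. Without the hippocampal 154Q-76 and cortical WT-221 libraries, Etv1 was not called (0.0787) and Etv4 was (0.0365). The Etv1 call was also lost without mouse WT-220, WT-221, 154Q-69, or 154Q-76 (adjusted p = 0.11 to 0.136), and the Dusp4 call without any of the mice WT-70, WT-77, 154Q-69, 154Q-71, 154Q-75, or 154Q-76 (0.0584 to 0.139). The Spry2 and Dusp6 calls for 154Q held without each mouse in turn. Of the 154Q-AXH calls, Spry2 was lost without 154Q-AXH-209 or 154Q-AXH-218 (0.0809 and 0.0861), and Dusp6 without WT-70, WT-220, WT-221, 154Q-69, 154Q-71, 154Q-AXH-207, or 154Q-AXH-217 (0.0504 to 0.185). Removal of 1 mouse also brought in calls for 154Q: Etv4 without WT-70, 154Q-76, 154Q-AXH-217, or 154Q-AXH-218 (0.0361 to 0.0458), and Spred1 without WT-77, 154Q-AXH-207, or 154Q-AXH-218 (0.0222 to 0.0489). For 154Q-AXH, Dusp4 was called without WT-221 (0.0484).

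Some members moved together from library to library. After removal of each region's mean, Pearson's r over the 59 libraries ran from -0.38 to 0.73 in the 45 pairs of members, with a median of 0.20, and 32 were above 0. Etv5 with Spred1 (0.73), Dusp4 with Dusp6 (0.72), and Etv5 with Dusp6 (0.71) were the closest pairs. Shc3 reached at most 0.16 with any other member on this measure, but 0.40 with Spred1 and 0.39 with Dusp6 once genotype means were removed as well. Spry1 went with Etv4 (0.50) and against Spry4 (-0.38). On that second measure the median was 0.19 and the range -0.33 to 0.57. These values are descriptions: libraries of 1 mouse share the animal, libraries of 1 region share their handling, and no p is given. The 5 other genes whose region-centred level was most like the members' mean, of 17530 genes compared, were Ubqln4 (r = 0.80), Homer1 (0.79), Pdp1 (0.78), Dusp7 (0.77), and Trib1 (0.77). Dusp7 is a further ERK phosphatase.

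**Figure D4:**
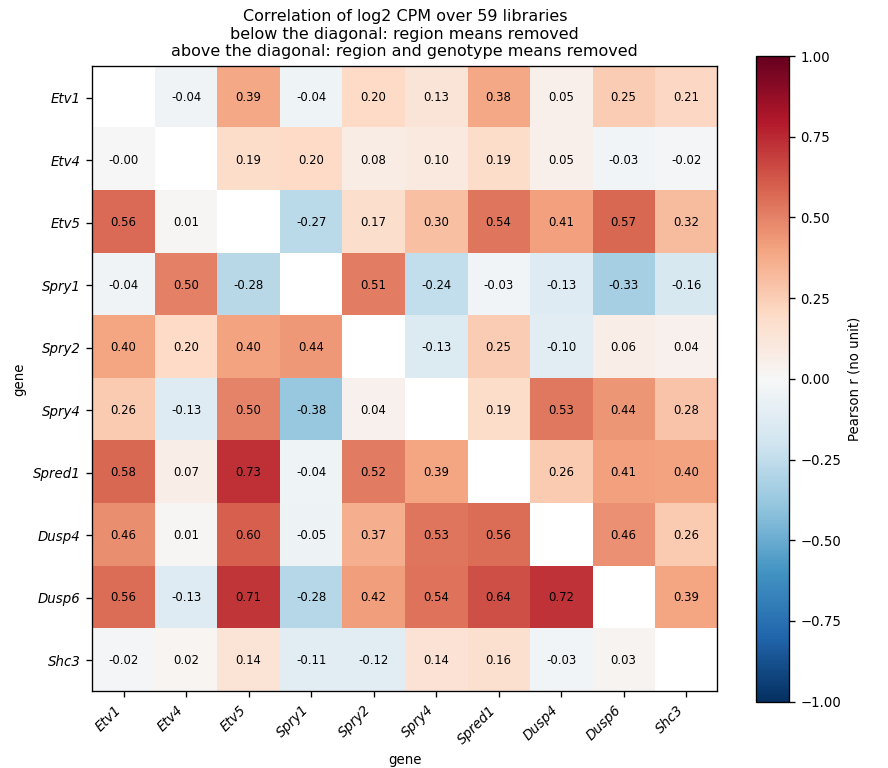
Pearson's r of log2 CPM between the 10 genes over 59 libraries, with region means removed below the diagonal and region and genotype means removed above it. Etv5, Spred1, Dusp4, and Dusp6 form the block of high values below the diagonal, and Etv4, Spry1, and Shc3 stand outside it.

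Of 12 other Sprouty, Spred, DUSP, and related feedback genes, 154Q mice had 1 lower in the cerebellum, 2 in each of the 3 forebrain regions, none lower in the brainstem, and none higher in any region. Of all genes, 3.12% (154Q cerebellum), 3.39% (hippocampus), 3.77% (striatum), and 6.71% (cortex) fell. Dusp5, an ERK phosphatase of the nucleus, fell in the 154Q cerebellum (log2 fold change -0.92 ± 0.10, adjusted p = 4.89e-05), hippocampus (-1.36 ± 0.20, 0.00314), and cortex (-0.58 ± 0.13, 0.0109). It fell in the same 3 regions of 154Q-AXH mice (-0.73 ± 0.09, -1.51 ± 0.20, and -0.79 ± 0.14). Dusp7 fell in the hippocampus (-0.39 ± 0.08), striatum (-0.49 ± 0.10), and cortex (-0.47 ± 0.07), and Dusp1, a phosphatase induced by stress and growth factors, in the striatum (-0.73 ± 0.12). Thus Dusp5 was lower in the cerebellum, where Dusp4 and Dusp6 were not called.

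Some upstream genes were called, in both directions. Of 17 receptors and adaptors, 1 was called in each forebrain region of 154Q mice, and of 17 Ras, RAF, MEK, ERK, and RSK genes 3 (hippocampus), 2 (striatum), and 3 (cortex), where 5.91%, 5.69%, and 11.1% of all genes changed. The share of receptors and adaptors called was near that of all genes in hippocampus and striatum and below it in the cortex. Among the receptors and adaptors, Sos1 rose in the 154Q hippocampus (0.30 ± 0.07, adjusted p = 0.0266), Ntrk3 fell in the striatum (-0.33 ± 0.08, 0.0349), and Erbb4 fell in the cortex (-0.31 ± 0.06, 0.00246). Among the kinases and their regulators, Nf1, which encodes the Ras GTPase-activating partner of SPRED1, rose in the 154Q hippocampus (0.35 ± 0.08), striatum (0.32 ± 0.08), and cortex (0.21 ± 0.05), and Hras fell in the same regions (-0.30 ± 0.07, -0.70 ± 0.15, and -0.19 ± 0.05). Ksr1, a scaffold for the kinases, fell in the hippocampus (-0.53 ± 0.14, adjusted p = 0.0454). Mapk3, which encodes ERK1, rose in the 154Q cortex (0.47 ± 0.09, adjusted p = 0.00483). Of 11 other ETS factors, only Erf, a repressor that ERK exports from the nucleus, was called in 154Q mice: it fell in the hippocampus (-0.60 ± 0.09), striatum (-0.43 ± 0.10), and cortex (-0.22 ± 0.06). Of 8 other genes read as ERK output, Ier3 fell in the cerebellum (-0.32 ± 0.09), striatum (-0.80 ± 0.13), and cortex (-0.47 ± 0.08), Phlda1 fell in the cortex (-0.41 ± 0.09), and Ccnd1 rose in the cerebellum (0.23 ± 0.06). Of all genes, 5.22% changed in either direction in the 154Q cerebellum.

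Some activity-induced immediate early genes fell in the forebrain. Of 8, the 154Q hippocampus had 1 lower (Arc, -1.04 ± 0.26), the striatum 3 (Egr2, -2.07 ± 0.33, Arc, -1.01 ± 0.21, and Nr4a1, -0.76 ± 0.20), and the cortex 1 (Arc, -1.03 ± 0.25), and none rose, where 3.39%, 3.77%, and 6.71% of all genes fell. In 154Q-AXH mice 4 of the 8 fell in the hippocampus, 4 in striatum, and 3 in cortex, Arc, Egr1, and Egr2 among them each time, where 0.671%, 1.08%, and 4.76% of all genes fell. Their part in the members' changes was not tested. Markers of cell types moved in the cortex as well. Of 6 astrocyte markers, 5 fell in the 154Q cortex (their sum was 2159.8 to 2591 CPM, against 2769 to 2927 CPM in WT), and 1 fell in 154Q-AXH mice (2322 to 2549 CPM). The astrocyte sum also lay below WT without overlap in the brainstem of both mutants. It was 3530 to 4210 CPM in the WT brainstem, 3002 to 3266 CPM in 154Q, and 3154 to 3515 CPM in 154Q-AXH mice. Of 5 neuron markers, 3 fell in the 154Q cortex (5021 to 5659 CPM, against 6010.5 to 6579.5 CPM in WT) and 1 in 154Q-AXH mice (5154 to 6126 CPM). Of 4 blood markers, all 4 fell in the 154Q striatum (55.0 to 77.5 CPM, against 103 to 175 CPM in WT) and 3 in the hippocampus (31.9 to 45.7 CPM, against 54.6 to 125 CPM). In 154Q-AXH mice the blood sum overlapped WT in the striatum (52.1 to 122 CPM) and hippocampus (25.7 to 69.9 CPM). In the cerebellum it lay below WT (114 to 155 CPM) without overlap in 154Q (79.3 to 111.5 CPM) and 154Q-AXH mice (61.9 to 109 CPM). None of these markers was at 0 in any library of these regions. In the 154Q striatum 1 astrocyte and 1 endothelial marker fell, and in the 154Q cortex 1 oligodendrocyte precursor marker. No marker of microglia, oligodendrocytes, choroid plexus, or leptomeningeal fibroblasts was called in either mutant. Even so, the 6 oligodendrocyte markers summed to 4960 to 6021 CPM in the 154Q striatum, against 6895 to 11722 CPM in WT, and the 4 precursor markers to 245 to 277 CPM, against 320 to 444 CPM. In 154Q-AXH mice both sums overlapped WT (4678 to 11109 CPM and 232 to 431 CPM). Of the markers of the cortex itself, Lamp5 fell in the cortex of both mutants (-1.23 ± 0.15 and -1.17 ± 0.15) and Cux2 fell in that of 154Q-AXH mice (-0.25 ± 0.07). The part of these cell types in the members' changes was not tested.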

How the data were processed

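The authors isolated total RNA from dissected tissue, trimmed the reads (Trimmomatic 0.36), aligned them with STAR 2.7.2d (GRCm38.p6, GENCODE M18), and deposited raw read counts per gene for each library, without normalization. Counts that ignore strand were taken (the first strand held 48.9% to 50.1% of the stranded counts), and symbols came from GENCODE M21 (54165 of 54232 genes matched). Summary lines and 1 human transgene line (at most 53 counts) were left out. Between 75.3% and 81.2% of read pairs were counted on genes. In each region, genes were kept by filterByExpr, scaled by TMM, and fitted with edgeR 4.0.16 in R 4.3.3 (quasi-likelihood test, the 3 genotypes in 1 model), with Benjamini-Hochberg adjustment over all genes tested and a threshold of 0.05. SE was taken from each log2 fold change and its F statistic. CPM uses TMM-scaled library sizes, and log2 CPM a prior count of 2. The study used DESeq2, which was an alternative here (1.42.0). The same mice gave every region. The correlation of deviations ran from -0.43 to 0.50 over 116 same-mouse pairs of libraries, and 46 pairs were above 0.1. Its median in each pair of regions had itself a median of 0.075. Mouse was a block in an alternative fit only, so that the main fits treat libraries of 1 mouse as independent. The members and lists were chosen with earlier results of these data known. Named from the pathway lists are at most 4 called genes per list and region, by lowest adjusted p. Alternatives were DESeq2, its size factors, no filter, 2 genotypes alone, the Xist level or mouse number series as a covariate, the pair of cortical libraries exchanged or left out, the libraries that stand apart left out, and leaving out each library or mouse in turn. The 6-base motif search and the pairs of regions were added after the data had been seen. The result of 1 marker of the cortex is not reported here. The scripts were tested on simulated data.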

Additional observations from a re-analysis of the deposited data

Results flagged for a closer look

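Of 140 groups of 4 libraries of a member, 6 held 1 library whose gap to its nearest neighbour was a large part of the range of the group on the log2 scale, and about 1 in 20 would by chance. Etv1 in the 154Q-AXH hippocampus was low in 154Q-AXH-218 (73.6 CPM, next 114 CPM, ratio of gap to range 0.901). Etv5 in the 154Q-AXH cerebellum was high in 154Q-AXH-218 (97.5 CPM, next 69.3 CPM, ratio 0.896). Dusp4 in the WT brainstem was high in WT-221 (ratio 0.861), and Spry4 in the 154Q striatum was low in 154Q-76 (ratio 0.857). Spry1 was low in 154Q-AXH-207 of the 154Q-AXH cerebellum (ratio 0.845) and in 154Q-71 of the 154Q brainstem (ratio 0.835).

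The change from WT differed between regions in 154Q mice for Dusp6 (adjusted p = 0.00528), Spry2 (0.00538), Etv1 (0.0263), and Dusp4 (0.0381), and in 154Q-AXH mice for Spry2 (0.00825) and Dusp6 (0.0248), by edgeR's test of the difference over the 5 regions. The fraction of all genes that differed was 6.65% and 1.33%.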

How the results depend on the processing

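No call of a member changed direction under any alternative run: of 2680 values of genotype changes under alternatives, 2613 kept their side of the threshold, 40 lost a call, and 27 gained one. The numbers of members called against WT changed by more than 1.5 times as follows, and the cause was not tested. In 154Q mice DESeq2 called 1 member in the brainstem, 1 in the cerebellum, 3 in the hippocampus, and 4 in the striatum. With the number series in the model, 3 were called in the cortex and 0 in the striatum. The fit of 2 genotypes called 4 in the striatum. In 154Q-AXH mice DESeq2 called 1 in the brainstem, 2 in the cerebellum, and 1 in the hippocampus. With the number series, 3 members were called in the cerebellum, all lower (Etv1, Etv5, and Spred1), and 1 in the striatum. The fit of 2 genotypes called 0 in the cerebellum and 0 in the striatum. Without the filter, or with the level of Xist in the model, 1 was called in the striatum.

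When each library was left out in turn, the 154Q counts ranged from 0 to 1 in the cerebellum, 1 to 3 in the hippocampus, 1 to 4 in the striatum, and 4 to 5 in the cortex, and the 154Q-AXH counts from 0 to 1 in the cerebellum, 0 to 1 in the hippocampus, 0 to 3 in the striatum, and 3 to 4 in the cortex. The brainstem counts and those between the mutants stayed at 0. Leaving out each mouse, the members whose change differed by region numbered 2 to 6 in 154Q and 1 to 2 in 154Q-AXH mice, and the WT difference of striatum and cortex had 1 to 3 members. With the mouse as a replicate block, the last was 4, and beyond Spred1 and Etv4 no genotype result by region changed its call. The striatum and cortex, which were the shallowest regions, had at most 54719126 counted read pairs, and the lowest count of a member in 1 library, 129, was that of Dusp4.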
